A study of Mus musculus with 6 samples.

Results

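Zfp genes encode zinc finger proteins, and 223 of them were expressed in the mouse hepatoma cells studied here. The members were chosen by name and by measured level: every gene whose name is Zfp followed by digits, leaving out Zfp207 and 5 names ending in -ps, that had a mean CPM of at least 5 over the 6 libraries. CPM (counts per 1000000) is a gene's count divided by the library's total count, times 1000000. The deposited count table held 374 Zfp genes at any level, of which 151 lay below the threshold and 42 of those had no count in any library. The rule used only the mean over all libraries, so the level of a gene is a description here. The difference between the groups was not part of the rule, but it could enter for genes near the threshold. The mean reached 5 CPM only in the controls for 13 members and only in the knockdown for 1. RNA was sequenced from Hepa1-6, an established hepatoma line grown in culture, in 3 libraries of a control titled shNC (genotype label "control") and 3 titled shZfp207, in which a short hairpin RNA was directed at Zfp207. The labels do not say how many hairpins were used or whether the libraries came from separate cultures, so the p-values measure the spread between these libraries, which may be technical. In bulk RNA, fewer cells of a type and less RNA per cell cannot be told apart.

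Most Zfp proteins carry C2H2 fingers, short loops held by a zinc ion between cysteines and histidines, which read DNA when several stand in a row. The largest subfamily also carries a KRAB box near its start, which recruits the corepressor Trim28 and, through it, the histone methyltransferase Setdb1. KRAB zinc finger genes lie in tandem clusters that grew by duplication, and many of their proteins silence transposable elements and imprinted regions. Other Zfp genes have unrelated roles: the Zfp36 proteins bind AU-rich elements of mRNAs through CCCH fingers and speed their decay, and Zfp622 acts in the maturation of the large ribosomal subunit. Zfp207, also called BuGZ, binds microtubules and the checkpoint protein Bub3.

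Libraries held 11933736 to 16248346 counts. The first control library, shNC_1, stood apart from the other 2 controls. Its correlation with them over genes was 0.949 and 0.950, against 0.989 between shNC_2 and shNC_3, and mitochondrial genes took 10.5% of its counts against 2.89% and 2.67%, with 5.60% to 6.00% in the knockdown libraries. The nuclear RNA Malat1 was at 331 CPM in shNC_1, against 30.8 and 30.0 CPM in shNC_2 and shNC_3 and 104 to 129 CPM in the knockdown libraries. Results are therefore given with and without shNC_1. Of 10 hepatoma markers all were detected, although Ttr and Serpina1a were at or near 0. The summed level of the 10 was 3363 to 4526 CPM in the controls and 5750 to 5913 CPM after knockdown. The markers did not move together. Alb was at 524 to 1206 CPM in the controls and 2247 to 2379 CPM after knockdown, and Afp at 742 to 937 and 1775 to 1960 CPM. Apoe was lower after knockdown, at 1077 to 1227 CPM against 1668 to 1931 CPM, as was the low Apoa2. Hnf4a was at 340 to 379 CPM in all libraries. Of 5 leukocyte markers 3 were detected, with a sum under 1 CPM in every library, and Cd3e and Cd8a were at 0 throughout. Both endothelial markers were detected, at 0.617 to 2.05 CPM in sum, and both fibroblast markers, at 24.97 to 27.9 CPM in the controls and 17.1 to 18.8 CPM in the knockdown. Both bile duct markers were detected too, mainly Sox9, with a sum of 73.9 CPM in shNC_1, 161 and 158 CPM in shNC_2 and shNC_3, and 81.5 to 87.8 CPM in the knockdown. The part of such shifts in the results on Zfp genes was not tested.

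Zfp207 itself was at 141, 198 and 217 CPM in the controls and at 48.0, 48.1 and 46.8 CPM in the 3 knockdown libraries. The knockdown libraries therefore all lay below every control.

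The expressed Zfp genes passed the test about as often as other genes, and with all 6 libraries more of them fell than rose. All 223 passed the filter on low counts. With edgeR's quasi-likelihood test and Benjamini-Hochberg adjustment over all 11975 genes tested, 13 members were higher and 32 lower in the knockdown at an adjusted p below 0.05, or 20.2% of them. Over all genes tested the share was 20.6%, with 9.92% higher and 10.7% lower. Among the 9941 tested genes with a mean of 5 CPM or more it was 21.6%, with 10.3% higher and 11.4% lower. The members' shares were 5.83% higher and 14.3% lower. The median log2 fold change, knockdown over control, was -0.12 for the members and -0.02 for all genes at that level. Without shNC_1, 34 members were higher and 73 lower with a median of -0.08, where 55.8% of all genes at that level passed, 27.1% higher and 28.8% lower. Without shNC_2, 12 were higher and 13 lower, where 6.51% of all genes at that level were higher and 6.70% lower. Without shNC_3, 10 were higher and 13 lower, against 5.63% and 5.19%. Few genes of any kind passed without a knockdown library. Without shZfp207_1, 7 members were higher and 3 lower, against 3.33% and 2.91% of all genes. The counts were 6 and 3 without shZfp207_2, against 2.94% and 2.25%, and 5 and 3 without shZfp207_3, against 2.54% and 2.09%. In these last 3 fits more members rose than fell, and without shNC_2 or shNC_3 the counts were close to even. Among the 6 leave-outs, a large excess of falls was thus seen only without shNC_1. The median of all members stayed between -0.13 and -0.08 over all 6 leave-outs. All 45 members that passed in the full comparison passed in the same direction without shNC_1. Changes of at least 2-fold that passed were seen in 6 members, against 4.09% of all genes at that level. The mean reached 5 CPM only in the controls for 13 members and only in the knockdown for 1, and members that entered through 1 group had to differ in that direction. Of the 209 members with a mean of 5 CPM or more in both groups, 12 were higher and 27 lower with a median of -0.08, against 9.97% higher and 10.7% lower of all such genes. The knockdown libraries lay wholly above the controls for 32 members and wholly below them for 65, while 22.3% and 24.0% of all genes at that level did so.

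**Figure D1:**
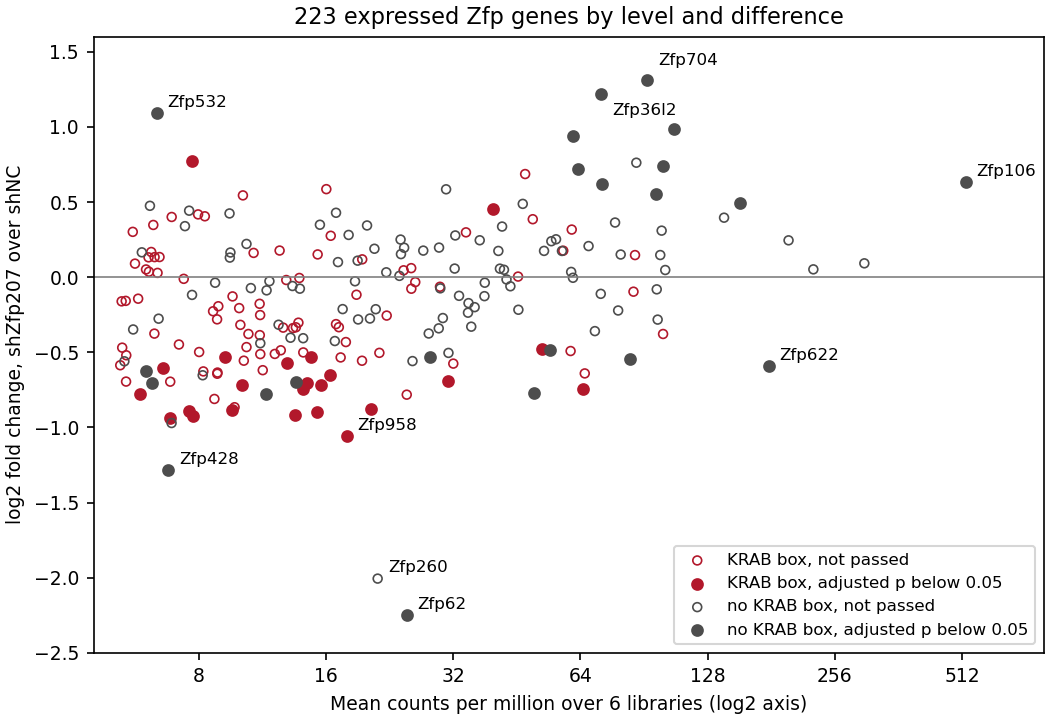
Each point is 1 of the 223 expressed Zfp genes, placed by its mean CPM over 6 libraries (log2 axis) and its log2 fold change between shZfp207 and shNC from edgeR. Red marks genes whose protein holds a KRAB box, grey the others, and filled points passed an adjusted p of 0.05; filled red points lie mostly below 0 and at low levels, while filled grey points above 0 lie mostly at high levels, up to Zfp106 at 522.8 CPM.

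Among the members Zfp106, an RNA-binding protein, held the highest count level, a mean of 522.8 CPM. Zfp36l1 followed with 300.8 CPM and Zfp706 with 228 CPM. Per length, on the deposited FPKM scale (fragments per kilobase of transcript, scaled to depth), the order was another one: Zfp622 led with a mean of 63.5, followed by Zfp36l1 with 61.0, Zfp706 with 51.5 and Zfp330, a nucleolar protein, with 49.9. Count levels of the 223 genes ranged from 5.205 to 522.8 CPM around a median of 17.1 CPM, and no member was at 0 in any library.

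Of the 13 members that rose, 11 have no KRAB box. Zfp704 rose most. Its level was 50.1, 54.4 and 55.0 CPM in the controls and 131, 136 and 127 CPM in the knockdown libraries, a log2 fold change of 1.32 ± 0.09 (SE; adjusted p = 0.00153, edgeR). The groups did not overlap and lay far apart beside the spread within each. Zfp217, which recruits corepressor complexes and is known in human tumours as an amplified oncogene, was at 76.8, 73.5 and 76.8 CPM in the controls and at 126, 127 and 123 CPM after knockdown (log2 fold change 0.74 ± 0.08, adjusted p = 0.0035, edgeR). Within each group its libraries differed by only a few CPM. Zfp652, a repressor whose human counterpart works with the corepressor CBFA2T3, was at 45.8, 39.6 and 42.0 CPM in the controls and at 86.1, 80.3 and 75.3 CPM after knockdown (log2 fold change 0.94 ± 0.10, adjusted p = 0.0035, edgeR). Zfp236, a protein with 30 fingers by the pattern used here, rose by 0.72 ± 0.09 on the log2 scale, from 47.2 to 49.1 CPM in the controls to 73.2 to 84.7 CPM. These 4 were also the rises that passed whichever of the 6 libraries was left out.

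**Figure D2:**
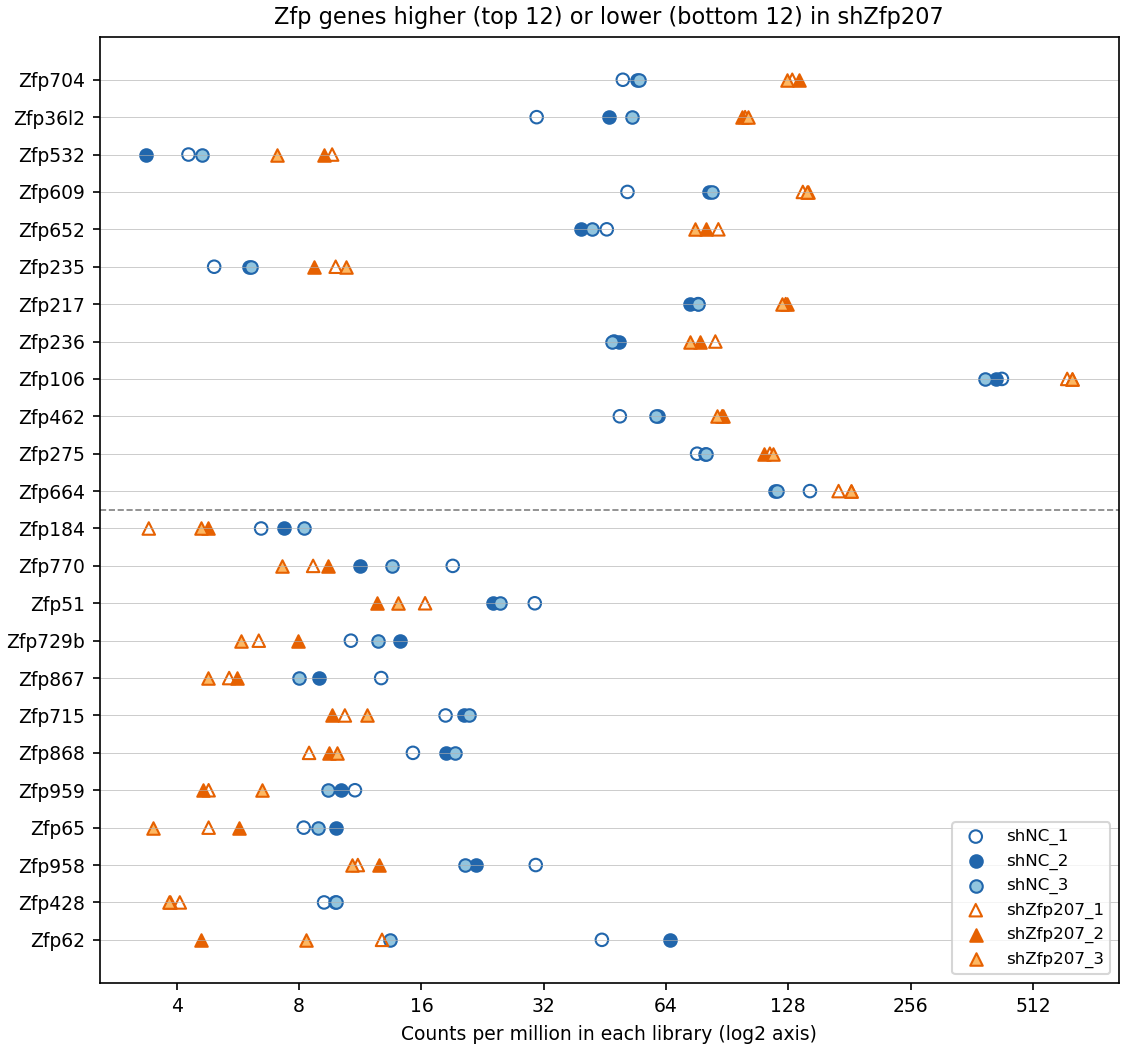
Level in each library, in CPM on a log2 axis, of the 12 Zfp genes with the largest rises (above the dashed line) and the 12 with the largest falls (below it) among those with an adjusted p below 0.05. Circles are the 3 control libraries, triangles the 3 knockdown libraries, and open symbols mark shNC_1 and shZfp207_1; in every row the triangles and circles stay apart, and Zfp62 shows the widest spread, with its nearest libraries at 12.8 and 13.4 CPM.

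For some rises the size depended on shNC_1. Zfp609, a partner of the cohesin loader Nipbl, was at 51.5, 81.6 and 82.9 CPM in the controls and at 139, 143 and 142 CPM after knockdown. Its log2 fold change was 0.98 ± 0.19 with all libraries and 0.79 without shNC_1. Zfp462, a chromatin protein with 33 fingers, was at 49.3, 61.2 and 60.6 CPM against 88.0, 88.2 and 85.2 CPM, with log2 fold changes of 0.62 ± 0.11 and 0.52. In both genes shNC_1 was the lowest control, and the knockdown libraries stood above all 3. Zfp532, which forms a complex with Zfp592 and Zfp687, rose by 1.09 ± 0.20 from a low level, 4.27, 3.36 and 4.62 CPM against 9.65, 9.22 and 7.04 CPM. Zfp532 was the 1 member that reached the 5 CPM of the rule only through the knockdown, so a higher level there was favoured by its choice. Its partners did not pass, Zfp592 with 0.25 ± 0.13 (adjusted p = 0.21, edgeR) and Zfp687 with 0.03 ± 0.12 (adjusted p = 0.86, edgeR). The other members that rose were Zfp235, Zfp275, Zfp664 and Zfp777 by 0.46 to 0.77, beside Zfp36l2 and Zfp106 described below.

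Of 29 listed promoter and chromatin factors 26 were members, of which 4 rose and none fell, with a median log2 fold change of 0.17. The 4 were Zfp704, Zfp217, Zfp609 and Zfp462. The background at that level was 10.3% higher and 11.4% lower. Without shNC_1 the list held 6 higher and 4 lower with a median of 0.10, or 23.1% and 15.4%, both below the 27.1% and 28.8% of all genes in that fit. Zfp335, Zfp703, Zfp143 and Zfp384 were the 4 lower ones there. Zfp143, an activator of snRNA and housekeeping promoters, was at 32.01, 59.6 and 56.0 CPM in the controls and at 41.2, 43.1 and 41.8 CPM after knockdown. The knockdown libraries thus lay between shNC_1 and the other controls, with a log2 fold change of -0.22 ± 0.23 with all libraries (adjusted p = 0.55, edgeR) and -0.45 without shNC_1 (adjusted p = 0.00142, edgeR). Zfp703, a corepressor of the NET family and a human breast cancer gene, showed the same order, with 71.2, 123 and 127.5 CPM against 94.4, 83.7 and 84.9 CPM. Zfp451, a SUMO ligase, had 1 library far from the rest: 153 CPM in shZfp207_3 against 51.2 to 76.4 CPM in the other 5.

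Among the genes that act on RNA, 12 of 13 listed were members, and 2 rose and 2 fell, where 10.3% of all genes at that level were higher and 11.4% lower. Zfp36l2, which binds AU-rich elements and leads mRNAs to decay, was at 30.8, 46.5 and 52.8 CPM in the controls and at 100.2, 98.5 and 102 CPM after knockdown. That is a log2 fold change of 1.22 ± 0.20 (adjusted p = 0.00947, edgeR), and 1.02 without shNC_1. Its 2 relatives did not pass. Zfp36l1 was at 219, 328 and 330.2 CPM against 310.3, 310.2 and 307 CPM, and Zfp36 at 24.1, 43.5 and 48.0 CPM against 37.6, 31.6 and 30.8 CPM. In both, the knockdown libraries lay between shNC_1 and the other controls, and Zfp36 passed as lower without shNC_1 (log2 fold change -0.45, adjusted p = 0.00928, edgeR). Of the exonic length of Zfp36l1, 55.9% overlaps a gene on the opposite strand, so its counts may hold reads of that gene.

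The Zfp36 proteins lead mRNAs to decay through the CCR4-NOT deadenylase. Of 20 genes of that complex and its helpers 19 were tested, and 1 rose and 1 fell, fewer in each direction than the 9.92% and 10.7% of all genes tested. Btg2, an antiproliferative partner of the deadenylase, rose by 0.55 ± 0.08 on the log2 scale, from 95.4, 99.5 and 103 CPM to 144, 144 and 145 CPM. Cnot7, a catalytic subunit, fell by 0.61 ± 0.15 on that scale.

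Zfp106 rose from 429.5, 416 and 391 CPM in the controls to 622, 640.5 and 638 CPM after knockdown (log2 fold change 0.63 ± 0.09, adjusted p = 0.00667, edgeR), with 26.1% of its exonic length overlapped on the opposite strand. Zfp622, the ribosome maturation factor, moved the other way, with 196, 216 and 234 CPM against 141, 140.2 and 143 CPM. Its log2 fold change was -0.59 ± 0.10 (adjusted p = 0.00999, edgeR), and the knockdown libraries spanned 140.2 to 143 CPM. Zfp638, an RNA-binding protein with a role in fat cell differentiation, fell by 0.48 ± 0.11 on the log2 scale, and Zfp330 by 0.55 ± 0.10. The remaining genes of the list, among them the ribosome-collision sensor Zfp598 at 88.9 to 109 CPM in all libraries, did not pass.

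Zfp428 was at 9.22, 9.80 and 9.85 CPM in the controls and 4.07, 3.85 and 3.83 CPM after knockdown. Its log2 fold change was -1.28 ± 0.14 (adjusted p = 0.00388, edgeR). It reached the 5 CPM of the rule only through the controls, as did 4 other members that fell, Zfp65, Zfp184, Zfp213 and Zfp341, so a lower level in the knockdown was favoured by their choice. Together with the KRAB gene Zfp715, at 18.4, 20.4 and 20.9 CPM against 10.4, 9.62 and 11.8 CPM, it was 1 of only 2 falls that passed whichever library was left out. Zfp62 had the largest fitted fall, -2.25 ± 0.62, but its controls ran from 13.4 to 65.6 CPM and its knockdown libraries from 4.58 to 12.8 CPM, so the nearest libraries of the groups almost met. Zfp260 resembled it, with 65.9, 17.1 and 19.2 CPM against 7.42, 14.6 and 2.94 CPM, and did not pass (log2 fold change -2.01 ± 0.72, adjusted p = 0.093, edgeR). Zfp37 fell by 0.77 ± 0.14 and Zfp770 by 0.78 ± 0.22 on the log2 scale. Zfp341, whose human counterpart drives transcription of STAT3, fell by 0.71 ± 0.16 from 7.26 to 7.94 CPM in the controls to 4.10 to 5.04 CPM. Zfp668, Zfp213 and Zfp35 fell by 0.70, 0.62 and 0.53, the counts of Zfp213 being overlapped over 56.6% of its exonic length on the opposite strand.

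Members with a KRAB box made up 21 of the 32 falls. A protein was counted as KRAB where its sequence, translated from GENCODE M21 coding transcripts, matched 1 of 2 patterns of the box, and 109 members did, 48.9% of all. Of these, 2 were higher and 21 lower in the knockdown, with a median log2 fold change of -0.33, and 78 of the 109 had a negative value. Of the 114 others 11 were higher and 11 lower, with a median of 0.02 and 56 negative values. The shares over all genes of 5 CPM or more were 10.3% higher and 11.4% lower. Without shNC_1 the counts were 9 higher and 43 lower for the KRAB members, median -0.30, and 25 higher and 30 lower for the others, median 0.02. In that fit 27.1% of all genes at that level were higher and 28.8% lower. With the members that had 5 CPM or more in both groups, the counts were 2 higher and 19 lower of 102 KRAB members, median -0.31, and 10 higher and 8 lower of 107 others, median 0.05. All genes chosen in that way were higher in 9.97% and lower in 10.7%. Leaving out shNC_2 or shNC_3 left 8 and 9 KRAB members lower and 2 and 0 higher. Of all genes of 5 CPM or more, 6.70% and 5.19% were lower and 6.51% and 5.63% higher in those fits. Leaving out any 1 knockdown library left 2 KRAB members lower and none higher, where 2.09% to 2.91% of all genes were lower. Between 2.54% and 3.33% of all genes were higher there. The shares of KRAB members that fell in these fits were thus near those of all genes, or somewhat above them without shNC_3. In each of these fits the share of KRAB members that rose was below that of all genes. The KRAB medians ran from -0.36 to -0.30 over the 6 leave-outs. A stricter form of the pattern kept 78 members, with 1 higher and 16 lower and a median of -0.36, beside the 10.3% and 11.4% of all genes. The difference between both kinds of member was not tested, since the genes were grouped with results of these libraries known.

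All 3 knockdown libraries are compared here with the same controls, so their values are not independent of each other. Relative to the mean of shNC_2 and shNC_3, the median KRAB member stood at -0.29, -0.29 and -0.27 on the log2 scale, and the median of the others at 0.02, 0.02 and 0.05. In shNC_1 the medians were -0.06 and -0.06, with quartiles of -0.46 and 0.31 for the KRAB members, so single genes lay far off in either direction there. Summed over the 109 genes, the KRAB members took 2094, 2216 and 2207 CPM in the controls and 1869, 1838 and 1837 CPM after knockdown. The other members took 5124, 5432 and 5429 CPM in the controls and 5879, 5858 and 5938 CPM after knockdown. The groups did not overlap in either sum. The mean sum of the other members was 562.8 CPM higher in the knockdown, of which Zfp106 alone made up 222 CPM. The 11 of them that rose made up 665 CPM, while the sum of the remaining 103 was lower by a mean difference of -102 CPM. Those 11 were picked by their rise in these libraries, and the 11 that fell stayed among the 103. The split therefore leans downwards for the remainder by construction.

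**Figure D3:**
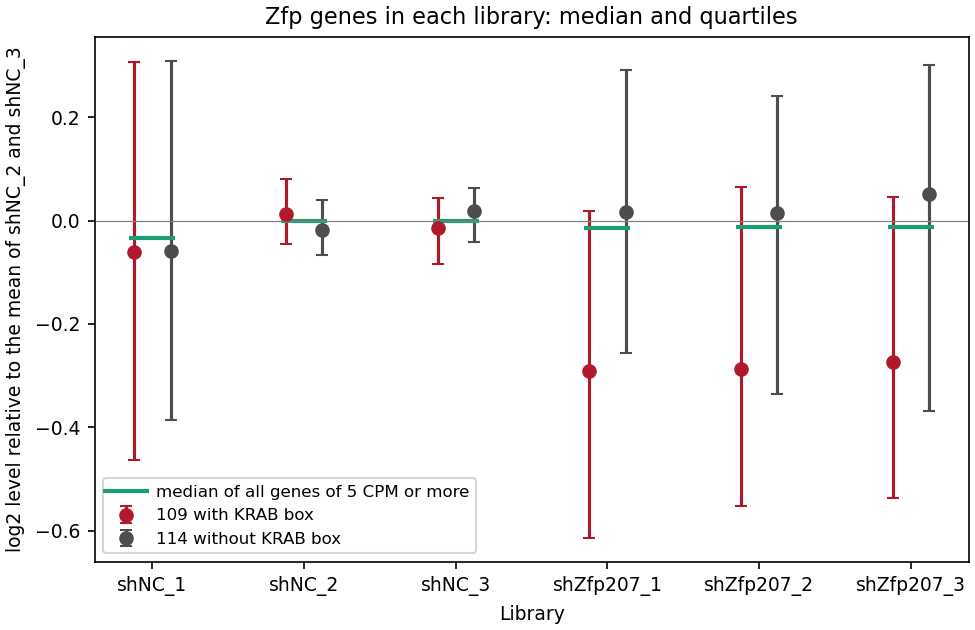
For each library, the median (point) and quartiles (bars) over genes of the log2 level relative to the mean of shNC_2 and shNC_3, after TMM scaling with 0.5 CPM added. The 109 KRAB members (red) lie at -0.27 to -0.29 in the 3 knockdown libraries while the 114 others (grey) lie at 0.02 to 0.05 and the median of all genes of 5 CPM or more (green) at -0.01; shNC_1 has medians of -0.06 and wide quartiles.

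KRAB members were expressed at lower levels than the others, with median levels of 11.3 and 30.0 CPM. With all 6 libraries, low genes leaned downwards. Among all genes tested with 5 to 20 CPM, 7.77% were higher and 13.3% lower, with a median log2 fold change of -0.10. Without shNC_1 the shares were 21.1% and 24.7%, and the median was -0.02. Among the 84 KRAB members in that range 1 was higher and 17 lower, with a median of -0.36, and among the 40 others 1 and 5, with a median of -0.07. Without shNC_1 the 84 held 5 higher and 31 lower with a median of -0.30, and the 40 others 6 and 11 with a median of -0.08. At 20 CPM or more, 11.2% of all genes tested were higher and 10.6% lower. There the 25 KRAB members held 1 higher and 4 lower with a median of -0.08, which became 4 higher and 12 lower with a median of -0.25 without shNC_1, where 29.2% of all genes at that level were higher and 30.2% lower. The 74 others at that level held 10 higher and 6 lower with a median of 0.05. With all 6 libraries the KRAB median thus lay well below that of all genes in the low range and close to it in the high range. Without shNC_1 it lay below that of all genes in both ranges.

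Related genes can share reads, which the counting may split between them. Leaving out members that share over 5% of their 75-base stretches with another gene, or have over 10% of their exons overlapped, kept 78 KRAB members, of which 2 were higher and 15 lower with a median of -0.32. Without such a selection, 10.3% of all genes of 5 CPM or more were higher and 11.4% lower. Examples of shared reads are Zfp935, all of whose exons overlap Zfp934, and Zfp729b, which shares 38.8% of its 75-base stretches.

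The number of C2H2 fingers differed along the same split. The 115 members with 10 or more fingers held 5 higher and 21 lower, median -0.27. The 67 with 5 to 9 fingers held 4 and 7, and the 41 with fewer held 4 and 4, with medians of -0.03 and -0.04. KRAB members had a median of 12 fingers and the others 7. Split by both, the 37 members with 10 or more fingers and no KRAB box held 4 higher and 6 lower with a median of 0.03, and the 78 with the box 1 and 15 with a median of -0.36. At 5 to 9 fingers, the 39 without the box held 3 and 1 with a median of 0.03, and the 28 with it 1 and 6 with a median of -0.26. The lower medians thus went with the box in both ranges of finger number, but members with the box were also expressed at lower levels. At 10 or more fingers the median level was 11.2 CPM with the box and 22.2 CPM without it. At 5 to 9 fingers it was 12.4 and 28.0 CPM. The part of the level in this split was not tested. Of all genes tested with 5 CPM or more, 10.3% were higher and 11.4% lower. Only 3 KRAB members had fewer than 5 fingers.

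The KRAB member with the largest fall was Zfp958, at 30.6, 21.9 and 20.5 CPM in the controls and at 11.2, 12.6 and 10.8 CPM after knockdown (log2 fold change -1.06 ± 0.18, adjusted p = 0.0107, edgeR). Zfp868 was at 15.3, 18.4 and 19.4 CPM against 8.47, 9.49 and 9.91 CPM, Zfp959 at 10.98, 10.1 and 9.42 CPM against 4.79, 4.64 and 6.49 CPM. In all 3 genes the highest knockdown library was below the lowest control. Zfp867, at 12.7, 8.98 and 8.001 CPM against 5.38, 5.64 and 4.79 CPM, and Zfp184, at 6.45, 7.33 and 8.25 CPM against 3.41, 4.78 and 4.58 CPM, fell by 0.89 ± 0.21 and 0.78 ± 0.20 on the log2 scale. The other KRAB members that fell did so by 0.48 to 0.94.

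Only 2 KRAB members rose. Zfp235 went from 4.94, 6.03 and 6.09 CPM to 9.84, 8.69 and 10.5 CPM, a log2 fold change of 0.77 ± 0.16 (adjusted p = 0.0208, edgeR). Zfp777 went from 32.9, 34.0 and 34.3 CPM to 47.0, 46.2 and 44.3 CPM, a log2 fold change of 0.46 ± 0.09 (adjusted p = 0.0161, edgeR). In both genes every knockdown library lay above every control.

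KRAB proteins with known targets were described as a list of 9, of which 8 were members, and 1, Zfp961, passed, with a fall of 0.71 ± 0.15 on the log2 scale. Zfp57, which keeps methylation at imprinted regions, was at 133 CPM in shNC_1, at 56.1 and 51.9 CPM in shNC_2 and shNC_3 and at 54.8, 50.0 and 47.6 CPM after knockdown. Its fitted value of -0.64 ± 0.35 (adjusted p = 0.24, edgeR) became -0.08 without shNC_1. Zfp445, its partner at imprinted regions, was at 14.2 CPM in shNC_1 and at 36.6 to 41.7 CPM in the other 5 libraries. Zfp568, the repressor of a placental Igf2 transcript, was at 14.4, 55.3 and 58.8 CPM against 88.1, 39.3 and 40.1 CPM, so that shNC_1 and shZfp207_1 each stood apart. Zfp809, which silences retroviruses in embryonic cells, was at 4.69 to 7.68 CPM in all libraries. Zfp746, a repressor linked to Parkin in neurons, stands in this list although its protein matched neither pattern of the box, and a gene counted as lacking a KRAB box may thus hold one that the patterns do not cover.

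The corepressor machinery of the KRAB proteins showed 1 rise and 1 fall among 18 genes, against 9.92% and 10.7% of all genes tested. Mphosph8, a subunit of the HUSH silencing complex, was at 31.4, 35.6 and 34.2 CPM in the controls and at 23.3, 19.9 and 21.5 CPM after knockdown (log2 fold change -0.63 ± 0.11, adjusted p = 0.0126, edgeR). Chd3, a remodeller of the NuRD complex, rose by 0.30 ± 0.08. Trim28 itself was at 364, 429 and 394 CPM against 328, 306 and 313 CPM, with a log2 fold change of -0.31 ± 0.10 that did not pass with all libraries (adjusted p = 0.069, edgeR) and did without shNC_1 (-0.38, adjusted p = 9.55e-04, edgeR).

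By chromosome, the members of chromosomes 8, 13 and 17 stood lowest. Chromosome 8 held 14 members, all 14 with a negative log2 fold change, 5 lower and none higher, with a median of -0.48. Chromosome 17 held 31 members, 24 of them KRAB, with 27 negative values, 5 lower, 1 higher and a median of -0.47. Chromosome 13 held 16 members, 12 of them KRAB, with 6 lower, none higher and a median of -0.33. The other genes of 5 CPM or more on these chromosomes had medians of -0.12, -0.09 and -0.03, all above those of the Zfp genes there. The share of other genes that were lower was 17.1% on chromosome 8, 12.5% on chromosome 17, 9.55% on chromosome 13 and 13.3% on chromosome 7. The members' 5 of 14 and 6 of 16 on chromosomes 8 and 13 stood above these shares, while 5 of 31 on chromosome 17 was close to its share and 5 of 54 on chromosome 7 below it. On chromosome 17 the KRAB members had a median of -0.54 and the others of -0.07, and on chromosome 13 the medians were -0.61 and 0.11. On chromosome 8 both kinds were negative, with -0.53 and -0.28, and on chromosome 5 the medians were -0.43 and 0.14. The order was not the same everywhere. Chromosome 7 held the most members, 54, with a median of -0.14, 5 lower and 1 higher, and its 28 KRAB members lay above the others, at -0.09 against -0.21. KRAB members also lay above the others on chromosomes 2, 6 and 15, with -0.01 against -0.22, 0.18 against -0.07 and 0.15 against -0.22. On chromosome 9, 8 of the 10 members are KRAB and the median was 0.10, with 1 higher and none lower. Without shNC_1 the medians were -0.55, -0.40, -0.33 and -0.27 on chromosomes 8, 17, 13 and 7, and -0.01 on chromosome 9.

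**Figure D4:**
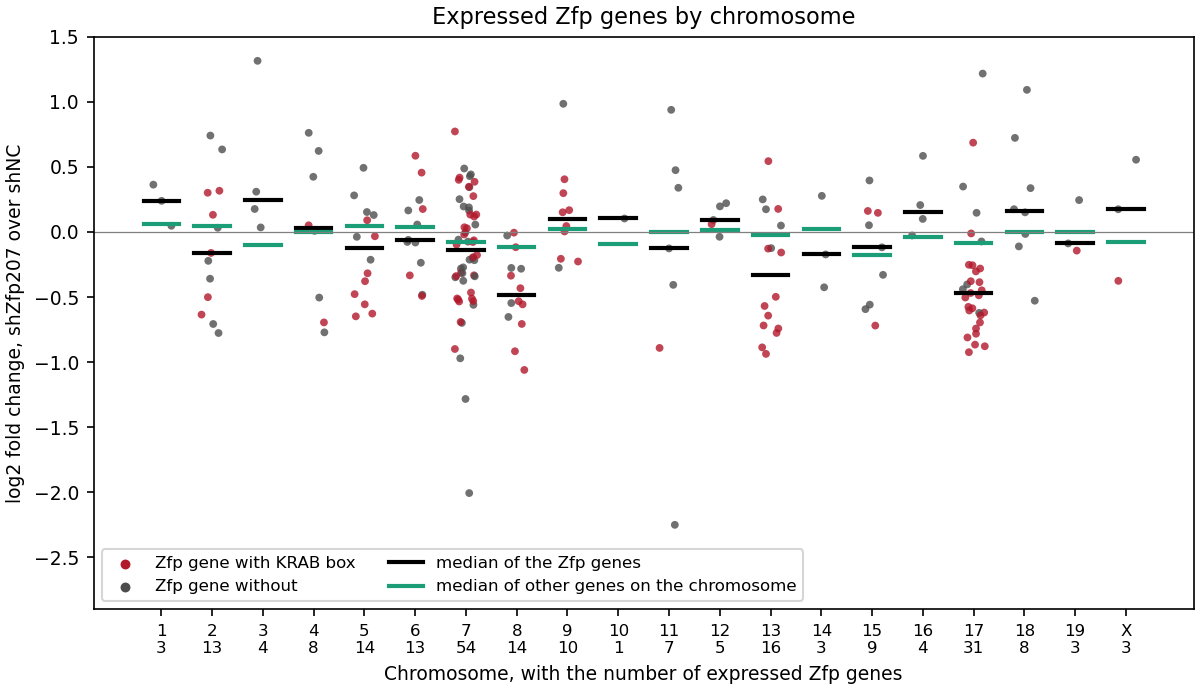
Log2 fold change between shZfp207 and shNC of each expressed Zfp gene by chromosome, with the number of members under each name. Red points are KRAB members, black lines the members' medians and green lines the medians of the other genes of 5 CPM or more; the black lines lie furthest below the green ones on chromosomes 8, 13 and 17, at -0.48, -0.33 and -0.47.

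Tandem clusters were taken as runs of at least 3 Zfp genes less than 200 kb apart. There were 26 of them in the table, and 95 members, 71 of them KRAB, lay inside one. KRAB members inside clusters held 2 higher and 13 lower of 71, median -0.31, and those outside 0 and 8 of 38, median -0.33. Both medians lay below the -0.02 of all genes of 5 CPM or more, of which 10.3% were higher and 11.4% lower.

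The cluster on chromosome 13, at chr13:67038594-67827002 on mm10, held 24 Zfp genes, of which 8 were expressed, all KRAB, and 5 fell. Other genes of 5 CPM or more on that chromosome were lower in 9.55%. Zfp65 was at 8.21, 9.87 and 8.92 CPM in the controls and at 4.79, 5.71 and 3.49 CPM after knockdown (log2 fold change -0.94 ± 0.21, adjusted p = 0.0269, edgeR). Zfp729a was at 13.9, 19.2 and 20.1 CPM against 10.3, 10.6 and 10.7 CPM and Zfp748 at 14.3, 22.6 and 21.4 CPM against 11.03, 11.9 and 12.2 CPM. In these last genes shNC_1 lay nearer to the knockdown libraries than the other controls did, and the falls were larger without it, -0.89 and -0.90 against -0.74 and -0.72. Zfp729b fell by 0.89 ± 0.19 and Zfp87 by 0.57 ± 0.15 on the log2 scale. Zfp874a, Zfp874b and Zfp738 did not pass, with log2 fold changes of 0.18 ± 0.17, -0.13 ± 0.22 and -0.50 ± 0.18.

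In the cluster on chromosome 17, at chr17:21383748-22456689, 11 of 15 Zfp genes were expressed, all KRAB, and all 11 had negative log2 fold changes from -0.28 to -0.88. Zfp51, at 30.4, 24.1 and 25.1 CPM against 16.3, 12.5 and 14.01 CPM, fell by 0.88 ± 0.15. Zfp948, the highest of them, went from 95.8, 75.3 and 73.1 CPM to 49.0, 48.7 and 46.8 CPM, a fall of 0.74 ± 0.12 on the log2 scale. The other 9 did not pass with all libraries. Here shNC_1 was above the other controls in most genes, as in Zfp944 with 20.3 CPM against 8.02 and 9.54 CPM. The median of the cluster was -0.59 with all libraries and -0.40 without shNC_1, when 5 passed as lower and all 11 values stayed negative.

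**Figure D5:**
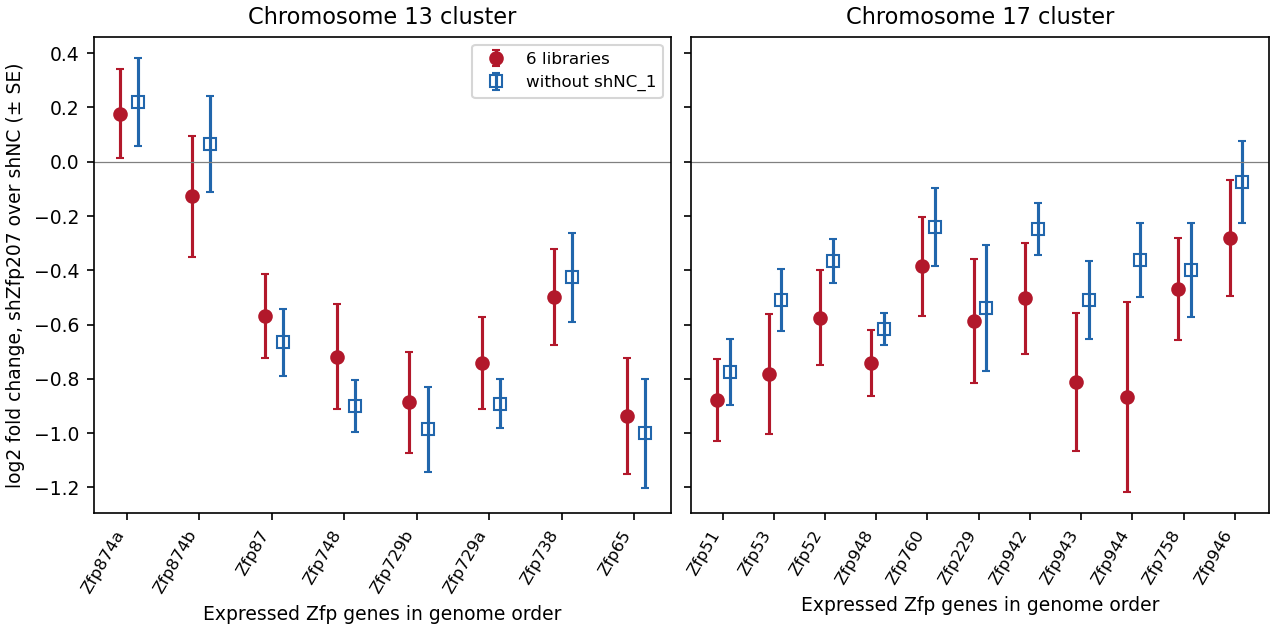
Log2 fold change between shZfp207 and shNC with its standard error for the expressed Zfp genes of the clusters on chromosomes 13 (8 genes) and 17 (11 genes), in genome order, with all 6 libraries (red circles) and without shNC_1 (blue squares). On chromosome 13 all but Zfp874a and Zfp874b lie at -0.43 or lower in both fits, and on chromosome 17 all 11 lie below 0, with higher values once shNC_1 is left out.

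A cluster on chromosome 6, at chr6:47819266-48086593, differed in direction. Its 6 expressed genes all had positive values, with a median of 0.21, and Zfp777, described above, was the only one to pass.

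The promoters of the chromosome 13 genes share a sequence that those of the chromosome 17 cluster lack. It is the core of the element bound by Zfp143, ACTACANNTCCC, where N is any base, searched on both strands in the 250 bases before the first start that the RefSeq promoter set on GRCm38.p6 lists for a gene. Of the 8 expressed genes of the chromosome 13 cluster, 6 had a promoter in that set and all 6 held the element, in each case within 44 bases of that start. For 5 of them the RefSeq start lies within 54 bases of the gene start in the deposited table, and for Zfp738 it lies 3559 bases inside the gene. The stretches are shown in the direction of the gene, 5′ to 3′, with 20 bases on either side where the window allows and the element, here on the reverse strand, in capitals.
Zfp874a, chr13:67451626-67451677, minus strand: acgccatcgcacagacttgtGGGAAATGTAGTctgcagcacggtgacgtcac
Zfp874b, chr13:67484257-67484308, minus strand: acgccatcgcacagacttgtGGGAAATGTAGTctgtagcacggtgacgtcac
Zfp748, chr13:67553153-67553198, minus strand: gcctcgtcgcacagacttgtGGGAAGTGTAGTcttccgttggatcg
Zfp729a, chr13:67637784-67637835, minus strand: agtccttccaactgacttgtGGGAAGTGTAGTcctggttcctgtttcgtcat
Zfp738, chr13:67683537-67683588, minus strand: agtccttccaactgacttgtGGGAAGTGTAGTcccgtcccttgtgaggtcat
Zfp65, chr13:67729174-67729211, minus strand: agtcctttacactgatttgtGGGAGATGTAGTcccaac

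The bases around the element are also alike within the cluster, as in Zfp729a and Zfp738, whose 20 bases before it are the same. Genes with the element did not all move: Zfp874a, Zfp874b and Zfp738 carry it and did not pass, while Zfp748, Zfp729a and Zfp65 carry it and fell. Of the 10 matched promoters of the chromosome 17 cluster none held it, although that cluster also lay below 0 throughout. Chromosome 7 held a cluster with the element in 7 of 11 matched promoters, those of Zfp84, Zfp790, Zfp383, Zfp74, Zfp566, Zfp260 and Zfp146, and only Zfp566 of its 12 members passed, as lower. A match is only a description of these letters, and binding was not measured.

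Over the family the element was common but unevenly spread, and it stood mostly in a few clusters. Besides the clusters above, the element stood in 3 of 5 and in 2 of 4 matched promoters of 2 further clusters on chromosome 7. A further cluster on chromosome 17 held it in 0 of 8. The element was found in 20 of 94 matched KRAB promoters, 21.3%, in 6 of 88 promoters of the other members, 6.82%, in 4.67% of the promoters of all genes of 5 CPM or more and in 1.81% of all promoters. KRAB members with it held 0 higher and 4 lower of 20, with a median log2 fold change of -0.17, and those without it 2 and 12 of 74, with a median of -0.33. Without shNC_1 the medians were -0.32 and -0.26, in the opposite order. The 6 members with the element and no KRAB box all had negative values and none passed, with a median of -0.37, against 0.05 for the 82 without it, and -0.38 against 0.02 without shNC_1. Over all genes of 5 CPM or more, the 355 with the element had a median of -0.09. Of these 355 genes, 6.197% were higher and 10.99% lower, against 10.3% and 11.4% of all genes at that level. In all, 182 of the 223 members had a promoter in the set, and for 164 of them its start lay within 500 bases of the deposited gene start. Among these 164 the element stood in 17 of 81 KRAB promoters and 6 of 83 others.

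KRAB promoters also differed in other letters. The GC box GGGCGG, on either strand, stood in 33.0% of KRAB promoters, in 56.8% of those of the other members and in 62.6% of those of all genes of 5 CPM or more. The CCAAT box, CCAAT, stood in 52.1%, 44.3% and 36.9%, and the ETS core CCGGAAG in 20.2%, 14.8% and 15.9%. Over all promoters the shares were 32.9%, 34.5% and 7.05%. The GC content had medians of 51.6%, 60.4% and 60.4% in the same 3 sets. The windows of a member that rose and of one that fell are given as examples whose RefSeq and deposited starts lie within 14 bases of each other, with these motifs on either strand in capitals, none of which overlap another.
Zfp664, chr5:124862455-124862704, plus strand: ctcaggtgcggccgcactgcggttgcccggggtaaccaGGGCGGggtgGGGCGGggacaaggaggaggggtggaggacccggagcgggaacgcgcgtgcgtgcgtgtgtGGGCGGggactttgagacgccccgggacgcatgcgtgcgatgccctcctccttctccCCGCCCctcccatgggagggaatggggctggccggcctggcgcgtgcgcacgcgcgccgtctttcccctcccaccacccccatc
Zfp958, chr8:4612920-4613169, plus strand: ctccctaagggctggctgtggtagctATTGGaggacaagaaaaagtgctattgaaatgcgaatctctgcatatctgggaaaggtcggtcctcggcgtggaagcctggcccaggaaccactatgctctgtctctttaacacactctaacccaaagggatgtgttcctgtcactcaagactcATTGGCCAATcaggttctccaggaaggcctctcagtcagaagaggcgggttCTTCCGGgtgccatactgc

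Zfp664, which rose and has no KRAB box, has 4 GC boxes in its window, 3 of them on the forward strand, and no CCAAT box or ETS core. Zfp958, the KRAB member with the largest fall, has CCAAT boxes on both strands and an ETS core, on the reverse strand, close to its start, and no GC box. These windows do not stand for all members that rose or fell. A CCAAT box stood in 4 of 7 matched promoters of members that rose and in 13 of 26 of those that fell. The ETS core stood in 1 and 3 of them, and the GC box in 5 and 10.

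Zinc finger genes outside the Zfp names gave a mixed picture. Of 22 further genes with a KRAB box and at least 2 fingers and 5 CPM or more, 1 was higher and 4 lower. Of all genes at that level 10.3% were higher and 11.4% lower. The median log2 fold change of the 22 was -0.13 and became 0.01 without shNC_1. BTB zinc finger genes, named Zbtb, carry a protein interaction domain, the BTB domain. Leaving out Zbtb8os, which shares the name and is no such gene, 38 were tested, and 6 were higher and 2 lower, with a median of 0.15, where 9.92% of all genes tested were higher and 10.7% lower. Zbtb38, which binds methylated DNA, rose from 153, 158 and 151 CPM to 254, 269 and 265 CPM, a log2 fold change of 0.78 ± 0.08 (adjusted p = 0.0035, edgeR). Of 17 tested Zscan and Zkscan genes, whose SCAN domain joins proteins in pairs, 1 was higher and 1 lower, against the same 9.92% and 10.7%. The rise was that of Zscan4d, of the telomere-linked Zscan4 family of early embryos, from 0, 0.48 and 0.31 CPM to 3.02, 3.12 and 3.28 CPM, and its reads can be shared with its near-identical copies.

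Zfp763, Zfp846 and Zfp607 lay just below it, with means of 4.958, 4.996 and 4.999 CPM, and Zfp229, Zfp937 and Zfp758 just above it, with 5.205, 5.245 and 5.261 CPM. Of the 151 genes below the level 66 were tested, and 1 was higher and 4 lower. Over all genes tested 9.92% were higher and 10.7% lower.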

How the data were processed

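The authors deposited whole-number counts of reads per gene, not normalized, for 6 libraries and, for these genes, FPKM values. Per the submitters' processing notes, the tools were featureCounts 1.5.0-p3 and HISAT2 2.0.5, on build mm10. Neither annotation nor strand setting is given in those notes. Over 7328 genes with at least 200 counts, the ratio of deposited count to deposited FPKM agreed between libraries within 0.0218%, so FPKM carries no scaling beyond the library total.

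Groups come from the sample titles. All genes were fitted with edgeR 4.0.16 in R 4.3.3 (filterByExpr, TMM, quasi-likelihood test on the group, two-sided, Benjamini-Hochberg over the 11975 genes kept) at an adjusted p below 0.05. The procedure was tested on simulated data. Alternatives were other scalings and filters, DESeq2 1.42.0, limma 3.58.1 with quality weights, a replicate block, each library left out, and thresholds of 2 and 10 CPM. Log2 levels by library have 0.5 CPM added.

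Members and lists were chosen with earlier results of these data known. Named genes are the 10 highest members, the 12 largest rises and falls that passed, the members of the lists and of clusters, 3 genes on either side of the threshold, and up to 3 genes per list of other families; others were picked after their values were seen. The KRAB comparison had been planned on a RefSeq protein table, which was not used here, and was to be left out without one. It was instead made on proteins translated from GENCODE M21 (GRCm38) transcripts, all 223 members being translated, and set against every other member, also those without a finger match. The broader pattern was set after the counts of the strict one had been seen, and the level ranges, the split by finger number, the genes at 5 CPM in both groups, the list without Zbtb8os and the Zfp143 element were chosen after seeing the data. Promoters are the first entry of a gene in the RefSeq set, and 34 matched members have several.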

Additional observations from a re-analysis of the deposited data

How the results depend on the processing

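Of the 223 members, 13 were higher and 32 lower, with a median log2 fold change of -0.118, and for the 109 KRAB members the values were 2, 21 and -0.334. Upper-quartile scaling moved the medians to -0.179 and -0.396. limma voom with quality weights, which weighs shNC_1 down, called 34 higher and 77 lower, of them 9 and 46 KRAB, with a KRAB median of -0.281. The strict KRAB pattern left 1 higher. Counting all Zfp genes with a mean of 2 CPM or more gave a median of -0.206. With 1 library left out, members higher ranged from 5 to 34 and lower from 3 to 73, KRAB members higher from 0 to 9 and lower from 2 to 43. The highest counts came without shNC_1, the lowest lower counts without a knockdown library. Same-numbered libraries showed little shared deviation (correlations of -0.008, 0.00771 and 0.0527). With 3 libraries per group and shNC_1 far from the other controls, these values cannot decide whether the numbers pair them. A fit with the replicate block called 9 higher and 10 lower, 0 and 7 of them KRAB. The cause of these shifts was not tested. Scaling by RLE, DESeq2, no filter, a 1 CPM filter and a 10 CPM threshold kept the counts of members within 1.5 times, and no median changed sign. The median standard error of a log2 fold change was 0.189 for members at 5 to 20 CPM and 0.155 for those above, and the highest, 1.06, belonged to Zfp292, which was at 1.01 CPM in shNC_1 and at 95.5 to 113 CPM in the other 5 libraries.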
